A study of Mus musculus with 81 samples.

Results

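The comparison described here was the Clec7a step in microglia of Cre mice after 5 weeks of cuprizone: cells sorted as Clec7a-positive against cells sorted as Clec7a-negative, both negative for CD229 and CD11c. The members were chosen by their labels and column names, as 3 Clec7a-positive and 3 Clec7a-negative libraries, which made 6 of the 81 libraries of the series. All 6 came from adult male C57BL/6 mice of the genotype Cx3cr1CreERT2/WT, called Cre here. They carry an inducible Cre recombinase in place of one copy of the fractalkine receptor gene Cx3cr1, which microglia express, so no library here has an unmodified Cx3cr1 locus. The mice ate a diet with 0.2% cuprizone, which binds copper and causes loss of oligodendrocytes and of the myelin they make. Brains of 2 to 6 mice were pooled for a sort. The series studies microglial states during demyelination, and sorts them by surface proteins and genotype. The Clec7a step was compared with the same step in Mef2aKO mice (Cx3cr1CreERT2/WT::Mef2afl/fl, 2 Clec7a-negative and 3 Clec7a-positive libraries), in which the Cre recombinase is meant to delete the transcription factor gene Mef2a. It was also set beside 3 other Cre populations of 3 libraries each: baseline microglia of mice on regular diet sorted as low in CD44, CD45 and CD11b, Clec7a-positive CD229-positive CD11c-negative cells, and cells positive for Clec7a, CD229 and CD11c. The labels give no time of Cre induction and do not say whether the replicates came from separate pools of mice, so p-values measure the spread between these libraries.

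Clec7a encodes dectin-1, a C-type lectin receptor that binds fungal beta-glucans and signals through the kinase Syk and the adaptor Card9. In the brain it is scarce on resting microglia and appears on the microglia that gather around damaged myelin, amyloid plaques and dying neurons. Those cells are known for a shared program of lipid handling, lysosomal and growth factor genes, with lower levels of genes of resting microglia such as P2ry12 and Tmem119. CD229 is the product of Ly9, a SLAM family receptor, and CD11c is the integrin chain encoded by Itgax.

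The 6 libraries held between 5959509 and 11375186 reads counted in genes, against 5959509 to 13972985 over all 29 libraries of the table. Levels are given in CPM, the read count of a gene relative to the scaled total of its library. A gene without a read could have a true level of up to 0.503 CPM in the shallowest of the 6 libraries, the level of 3 reads, which covers counting error only. Differences are given on the log2 scale as Clec7a-positive minus Clec7a-negative ± SE, with p-values of edgeR's quasi-likelihood test adjusted by Benjamini-Hochberg over the 13204 genes tested, and a gene was called higher or lower at an adjusted p under 0.05. Replicates of a group differed by more than counting noise, with a chi-square per degree of freedom from 2.92 to 4.62, so each was kept as a sample. On the first principal component, which carried 63.2% of the variance over 29 libraries, the Cre Clec7a-negative libraries scored from -31.1 to -22.8 and the Clec7a-positive libraries from 26.5 to 31.2. Cre baseline libraries scored from -80.5 to -78.5.

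**Figure D1:**
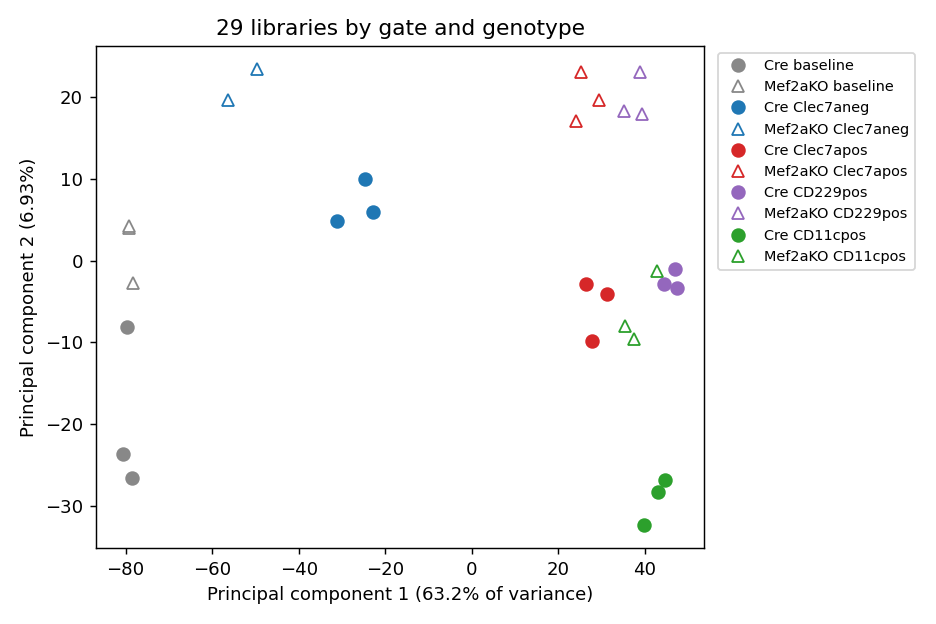
Scores of the libraries on the first and second principal components of log2 CPM (percent of variance on each axis), 1 point per library, coloured by sorted population, with filled circles for Cre and open triangles for Mef2aKO. The 3 Cre Clec7a-negative libraries lie between the baseline libraries (-80.5 to -78.5) and the Clec7a-positive libraries (26.5 to 31.2) on the first component.

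The genes of the sorted proteins were examined first, as a check on the labels. Clec7a stood at 143, 177 and 160.2 CPM in the Clec7a-negative libraries and at 527, 588 and 561 CPM in the Clec7a-positive libraries. The groups did not overlap, and the difference was 1.80 ± 0.10 (adjusted p = 1.91e-15). Clec7a-negative cells still held more Clec7a RNA than baseline microglia, which stood at 33.7, 34.6 and 27.7 CPM. Itgax stood at 81.7, 84.3 and 90.4 CPM without and 334, 335 and 309 CPM with Clec7a protein, although CD11c-positive cells were gated out of both groups (1.93 ± 0.12, adjusted p = 4.05e-14). Ly9 went the other way, from 97.2, 100.3 and 104 CPM to 58.7, 30.9 and 29.4 CPM (-1.30 ± 0.14, adjusted p = 7.85e-09). Clec7a-positive replicate 1 had the highest Ly9 level of its group, and without that library the difference was -1.73. Mef2a fell from 835, 804 and 734 CPM to 593, 649.8 and 686 CPM (-0.30 ± 0.08, adjusted p = 0.00209). Cx3cr1, the driver locus, stood at 1626, 1666 and 1539 CPM against 1379, 1347 and 1575 CPM. Those ranges overlap, and the difference of -0.17 ± 0.07 had an adjusted p of 0.0593, which passed the threshold in 6 of 13 alternative analyses, among them the fit of the compared groups alone (adjusted p = 0.0496).

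**Figure D2:**
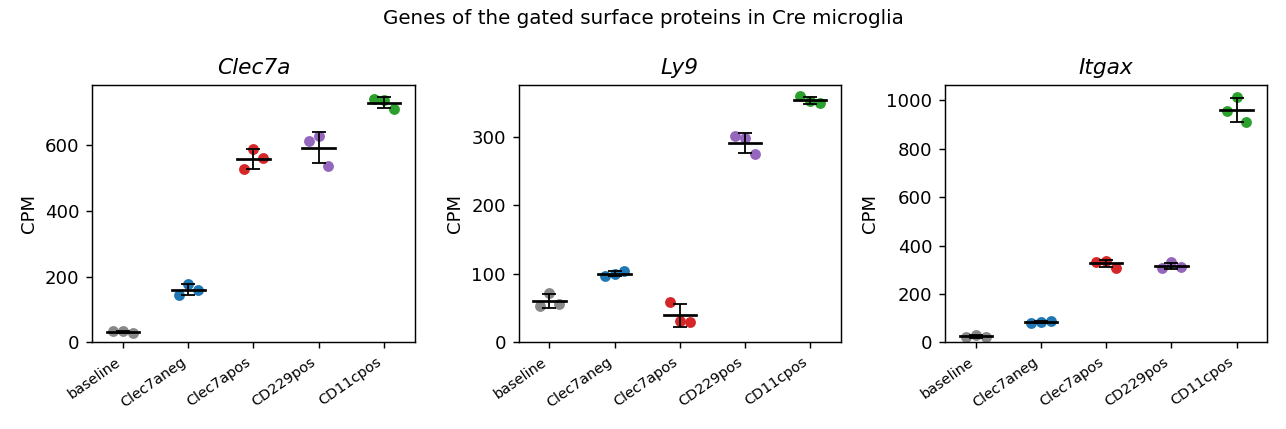
Levels of the genes of the sorted proteins in CPM (vertical axis), 1 point per library, with mean and SD as bars, in the Cre populations in the order of the sort (horizontal axis; pos and neg stand for positive and negative). Clec7a rises from 143 to 177 CPM in Clec7a-negative to 527 to 588 CPM in Clec7a-positive libraries, and Ly9 is lowest in the Clec7a-positive CD229-negative libraries (29.4 to 58.7 CPM).

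The promoters of Clec7a and Itgax, the lectin that defines the step and the integrin that moved with it, are shown as the 250 bases before the RefSeq start in GRCm38.p6, on the gene's own strand, 5′ to 3′. Clec7a lies at chr6:129461591-129472785 on the minus strand, with its promoter at chr6:129472786-129473035, and Itgax at chr7:128129550-128150657 on the plus strand, with its promoter at chr7:128129300-128129549. Capitals mark matches on either strand to the motif searched for interferon regulatory factors (AAANNGAAA) in Clec7a and to the AP-1 motif (TGANTCA) in Itgax.
Clec7a: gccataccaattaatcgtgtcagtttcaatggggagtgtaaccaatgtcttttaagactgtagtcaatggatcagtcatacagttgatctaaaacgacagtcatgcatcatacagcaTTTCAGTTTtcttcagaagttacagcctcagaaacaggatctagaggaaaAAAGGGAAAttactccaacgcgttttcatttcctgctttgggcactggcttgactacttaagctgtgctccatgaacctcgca
Itgax: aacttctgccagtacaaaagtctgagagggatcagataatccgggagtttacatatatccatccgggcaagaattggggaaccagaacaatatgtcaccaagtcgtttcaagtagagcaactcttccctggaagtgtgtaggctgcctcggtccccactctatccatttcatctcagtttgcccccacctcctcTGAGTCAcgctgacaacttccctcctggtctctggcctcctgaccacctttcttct
The Clec7a window holds 2 interferon-type matches, which begin 133 and 83 bases before the start, and the Itgax window holds 1 AP-1 match 56 bases before it. In windows of this length the interferon-type motif occurred in 9.37% and the AP-1 motif in 6.75% of all 32851 RefSeq promoters. A match describes the letters only.

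Across the transcriptome, 2754 genes were higher in Clec7a-positive cells (20.9% of those tested) and 2245 were lower (17%), by edgeR's quasi-likelihood test. Among them, 600 were at least 2-fold higher and 270 at least 2-fold lower, while the median over all genes tested was 0.002. Groups that did not overlap were common: 3362 genes (25.5%) were higher and 3035 (23%) lower in every Clec7a-positive library than in any Clec7a-negative library. Absence of overlap for a named gene is read against these shares. In the account below, list counts are read against the called shares of 20.9% and 17%. The lists were written with earlier results of these data known, so their counts describe the step and do not test it.

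**Figure D3:**
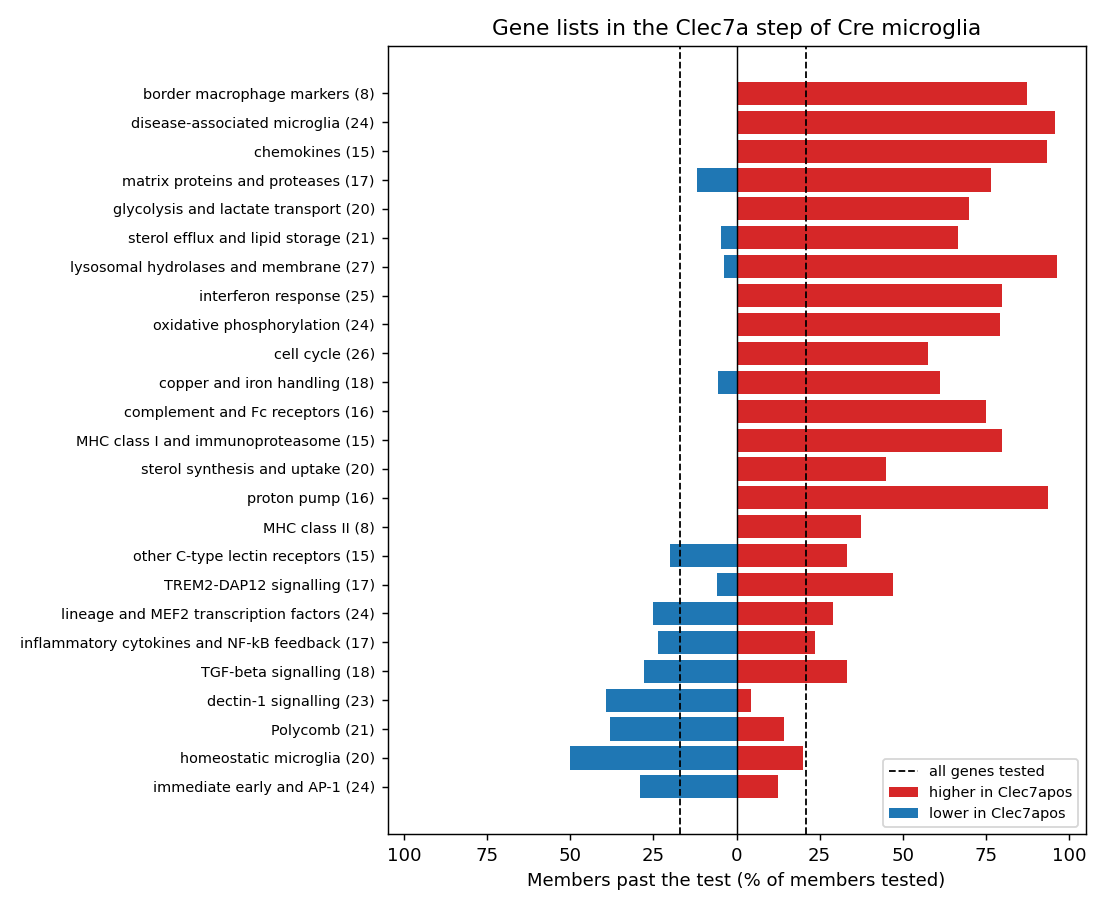
Share of each gene list's tested members (number in parentheses) that were higher (to the right) or lower (to the left) in Clec7a-positive cells, in percent. Dashed lines mark the shares over all genes tested, 17% lower and 20.9% higher; the disease-associated list has 23 of 24 members higher and the homeostatic list 10 of 20 lower.

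The largest differences were ranked among called genes whose groups did not overlap and whose mean over the 6 libraries reached 5 CPM. Predicted genes and small RNAs were left out. The genes of this ranking that rose most included those of secreted and scavenging proteins. Mamdc2, a secreted MAM domain protein found in disease-associated microglia, stood at 0.980, 1.47 and 1.43 CPM in Clec7a-negative and 21.7, 17.99 and 12.7 CPM in Clec7a-positive libraries (3.78 ± 0.25, adjusted p = 4.43e-13). Colec12, a scavenger receptor with a collectin domain, rose from 15.5, 19.7 and 22.4 CPM to 124, 126 and 125 CPM (2.7 ± 0.14, adjusted p = 3.98e-16). Igf1, insulin-like growth factor 1, which microglia supply during myelin repair, rose from 33.2, 33.4 and 34.3 CPM to 204, 232 and 202 CPM (2.66 ± 0.14, adjusted p = 7.17e-16). That the groups did not overlap for these genes was a condition of the ranking. Ace, angiotensin-converting enzyme, went from 1.69, 1.68 and 2.44 CPM to 16.8, 19.0 and 15.7 CPM (3.13 ± 0.32). Antibodies to Ace were part of the stain, but the labels name no Ace gate for these libraries. The rest of the 12 largest increases at that level were Cd163 (3.21 ± 0.63), F13a1 (3.10 ± 0.51), the potassium channel gene Kcnh2 (2.99 ± 0.37), Apoc4 (2.9 ± 0.18), Myof (2.86 ± 0.25), the magnesium channel gene Trpm6 (2.62 ± 0.30), the chemokine receptor gene Cxcr4 (2.60 ± 0.19) and the kinase gene Ikbke (2.59 ± 0.13). Cd163 was 4.16 without Clec7a-negative replicate 1 and Kcnh2 3.91 without Clec7a-negative replicate 3, libraries that held most of the few reads in that group. Cd163 and F13a1 were lower in Clec7a-negative cells than at baseline by a similar amount, as given below.

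Among the genes that fell, by the same minimum of 5 CPM, the G protein-coupled receptor gene Gpr165 led with 103, 92.2 and 85.3 CPM in Clec7a-negative and 18.2, 14.0 and 21.1 CPM in Clec7a-positive libraries (-2.42 ± 0.18, adjusted p = 9.63e-13). Baseline microglia held 201, 117 and 155 CPM, so the Clec7a-negative libraries lay between the other groups. The B cell scaffold gene Bank1 fell from 56.8, 43.9 and 45.0 CPM to 11.8, 9.91 and 12 CPM (-2.12 ± 0.15, adjusted p = 4.33e-13). Sema4b, a membrane semaphorin, fell from 63.4, 53.5 and 59.8 CPM to 14.6, 11.5 and 17.6 CPM (-2.04 ± 0.15). Here too, the ranking took only genes whose groups did not overlap, and left out predicted genes and small RNAs. The other large decreases were Sec16b (-2.36 ± 0.24), the circadian PAR bZip factor gene Hlf (-2.12 ± 0.23), the sialic acid receptor gene Siglecg (-2.09 ± 0.30), the long noncoding RNA Trp53cor1 (-2.08 ± 0.25), Cmya5 (-2.04 ± 0.20), Tmem204 (-2.02 ± 0.18), Adamtsl2 (-1.94 ± 0.24), Ccdc162 (-1.90 ± 0.28) and the Myc family gene Mycl (-1.88 ± 0.21).

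Genes of resting microglia did not move as a block. Of 20 tested, 10 fell and 4 rose, with a median of -0.21. P2ry12, the ADP receptor of microglial processes, fell from 1373, 1370 and 1241 CPM to 861, 857 and 1094 CPM (-0.50 ± 0.08, adjusted p = 1.03e-05). Tmem119, a membrane protein used to tell microglia from other macrophages, fell from 1058, 1065 and 998 CPM to 727, 663 and 813 CPM (-0.50 ± 0.08, adjusted p = 4.08e-06). The ranges were apart for both genes. Larger decreases were seen for Upk1b (-1.53 ± 0.12), the crystallin gene Crybb1 (-1.02 ± 0.13) and the fructose transporter gene Slc2a5 (-0.67 ± 0.07). Fcrls, an Fc receptor-like scavenger gene of microglia, rose from 957, 1021 and 948 CPM to 1243, 1269 and 1439 CPM (0.43 ± 0.09, adjusted p = 0.000115). Csf1r, the receptor microglia need to survive, stood at 2018, 2135 and 1947 against 2033, 2053 and 2459 CPM, an overlapping range with a difference of 0.10 ± 0.09 (adjusted p = 0.393). Without Clec7a-negative replicate 1, without Clec7a-negative replicate 3 or without Clec7a-positive replicate 3, 2 rather than 4 members of the list were higher.

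Of the 24 genes listed for the disease-associated program, 23 were higher and none was lower, with a median of 1.48. Apoe, the lipid carrier, rose from 810.1, 932 and 917 CPM to 2443, 2423 and 2598 CPM (1.49 ± 0.10, adjusted p = 1.31e-13). Lpl, lipoprotein lipase, rose from 297, 353 and 331 CPM to 1062, 1184 and 1244 CPM (1.83 ± 0.11, adjusted p = 2.19e-14). Csf1, a ligand of Csf1r, rose from 203, 204 and 197 CPM to 644, 695 and 625 CPM (1.70 ± 0.08, adjusted p = 1.23e-17). In each case the lowest Clec7a-positive library was above the highest Clec7a-negative library. Increases of 2 or more on the log2 scale were also found for Fabp5, a fatty acid chaperone (2.47 ± 0.13), the apolipoprotein gene Apoc1 (2.47 ± 0.15), the galectin gene Lgals3 (2.11 ± 0.10) and osteopontin, Spp1 (2.04 ± 0.13). Gpnmb (1.92 ± 0.14), the TAM receptor gene Axl (1.46 ± 0.12), the cystatin gene Cst7 (1.33 ± 0.13) and the tetraspanin gene Cd9 (0.71 ± 0.10) rose by smaller amounts. The Wnt antagonist gene Dkk2 was nearly silent without Clec7a, at 0.178, 0.315 and 0.588 CPM, and reached 8.04, 8.65 and 4.70 CPM with it (4.27 ± 0.38, adjusted p = 2.6e-10). Postn, periostin, was the one member not called, at 13.8, 11.96 and 12.6 CPM against 15.9, 15.7 and 9.05 CPM (0.13 ± 0.14, adjusted p = 0.52).

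The receptor whose protein defined the sort rose without its signalling genes. Of 23 tested genes of dectin-1 signalling, 1 was higher (2 in 5 alternatives, among them that without Clec7a-positive replicate 3) and 9 were lower, with a median of -0.13. Syk, the kinase at the head of the pathway, fell from 377, 373 and 374 CPM to 315, 275 and 288 CPM (-0.35 ± 0.06, adjusted p = 1.18e-05). The kinase gene Src (-0.67 ± 0.07) and the calcium-dependent factors Nfatc2 (-0.56 ± 0.06) and Nfatc1 (-0.43 ± 0.06) also fell. Fcer1g, the gene of the shared immunoreceptor chain, rose (0.56 ± 0.09, adjusted p = 3.95e-06). Card9 stood at 162, 180.0 and 173 against 153, 139.6 and 143 CPM. Its groups did not overlap, with a difference of -0.24 ± 0.11 that missed the threshold in the fit of all libraries (adjusted p = 0.0914) and passed it when only the compared groups were fitted (adjusted p = 0.00311).

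Among 15 tested genes of other C-type lectin receptors, 5 were higher and 3 lower. Klrb1b rose from 3.65, 3.36 and 4.87 CPM to 22.6, 19.2 and 20.4 CPM (2.38 ± 0.18), and Olr1, the receptor for oxidized low-density lipoprotein, rose by 1.68 ± 0.22. Clec4a2 (-1.08 ± 0.13) and Clec4a3 (-0.83 ± 0.11), genes of dendritic cell immunoreceptors, fell. They belong to a cluster of similar genes, so counts may be split between neighbours. Clec10a, a galactose-type lectin gene, went from 0.0891, 0 and 0.504 CPM to 5.20, 2.28 and 3.31 CPM (4.02 ± 0.77, adjusted p = 9.35e-05), with a difference of 5.90 without Clec7a-negative replicate 3.

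In the TREM2 pathway, which senses lipids and passes its signal through DAP12, 8 of 17 tested genes were higher and 1 was lower (median 0.13). The count of lower genes was 2 to 4 in 6 alternatives: 4 when only the compared groups were fitted, 3 with a replicate block on those groups, and 2 in the others, among them those without Clec7a-negative replicate 1 or without Clec7a-positive replicate 2. Trem2 rose from 390.0, 425 and 394 CPM to 544, 529 and 572 CPM (0.44 ± 0.09, adjusted p = 0.000134). Tyrobp, which encodes DAP12, rose by 0.75 ± 0.09, its relative Hcst by 0.92 ± 0.14 and Treml2 by 0.79 ± 0.11. Ms4a7, a membrane protein gene of border and reactive macrophages, rose from 1.16, 1.57 and 1.34 CPM to 8.70, 8.31 and 6.61 CPM (2.56 ± 0.33). The receptor and its adaptor thus changed by less than 1 on the log2 scale.

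Interferon response genes were higher in 20 of 25 cases, with none lower and a median of 0.62. Rsad2, the antiviral protein viperin, rose from 25.4, 30.0 and 35.4 CPM to 72.4, 67.3 and 68.7 CPM (1.20 ± 0.13, adjusted p = 2.9e-09). Ifi27l2a (1.20 ± 0.14), Ifit2 (0.93 ± 0.13) and the oligoadenylate synthetase gene Oas1a (0.76 ± 0.11) rose as well, and their groups did not overlap. In 6 alternatives 1 member was lower, among them those without Clec7a-negative replicate 3 or without Clec7a-positive replicate 3. Of the genes for MHC class I and its peptide supply, 12 of 15 were higher and none lower (median 0.40), among them B2m, from 486, 528 and 467 CPM to 665, 769 and 903 CPM (0.66 ± 0.09, adjusted p = 4.67e-07). Nlrc5, the activator of that gene set, rose by 0.70 ± 0.08, H2-D1 by 0.61 ± 0.09 and Tapbp by 0.39 ± 0.06. The classical class I genes are near-identical in parts, so the split of reads among them is uncertain. Of 8 MHC class II genes, 3 were higher and none lower. Cd74, the invariant chain, stood at 97.6, 87.5 and 99.4 against 149.6, 139.5 and 139 CPM (0.59 ± 0.19, adjusted p = 0.0116). H2-Ab1 rose by 0.81 ± 0.20 and H2-DMa by 0.48 ± 0.08.

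The promoters of Rsad2 and Hmgcs1 are printed as examples of an interferon response and a sterol synthesis gene that rose together with Clec7a. They are the 250 bases before the RefSeq start in GRCm38.p6, at chr12:26456453-26456702 on the minus strand for Rsad2 and at chr13:119690101-119690350 on the plus strand for Hmgcs1. Capitals mark the interferon-type AAANNGAAA and AP-1 TGANTCA matches in Rsad2 and a sterol-type TCACNCCAC match in Hmgcs1, on either strand.
Rsad2: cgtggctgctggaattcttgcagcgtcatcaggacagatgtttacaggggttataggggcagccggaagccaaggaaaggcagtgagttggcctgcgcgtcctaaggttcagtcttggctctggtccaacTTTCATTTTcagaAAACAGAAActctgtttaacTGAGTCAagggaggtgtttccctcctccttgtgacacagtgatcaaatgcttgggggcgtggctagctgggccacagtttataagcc
Hmgcs1: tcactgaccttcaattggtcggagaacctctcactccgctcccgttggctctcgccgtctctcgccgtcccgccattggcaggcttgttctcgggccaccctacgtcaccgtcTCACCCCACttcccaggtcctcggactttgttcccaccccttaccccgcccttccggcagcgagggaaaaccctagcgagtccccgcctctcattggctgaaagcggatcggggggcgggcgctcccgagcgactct
Rsad2 holds 2 interferon-type matches, 120 and 107 bases before the start, and an AP-1 match at 87 bases, and Hmgcs1 holds its sterol-type match at 137 bases. Not every gene of these lists that rose has a match. The window of Oas1a also holds 2 interferon-type matches, but those of Ifit2 and the sterol enzyme gene Dhcr7 hold none of the motifs searched. The sterol-type motif occurred in 1.05% of all RefSeq promoters of this length. Shares of the motifs among the changed genes are not given, because RefSeq promoters matched only 78.9% of the genes tested and 74.2% of those at least 2-fold higher, which makes such a check void.

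Genes of lipid uptake, storage and efflux rose, as did some of sterol synthesis. Of 21 genes of sterol efflux and lipid storage, 14 were higher and 1 lower (2 lower in 4 alternatives, among them that without Clec7a-negative replicate 3), with a median of 0.70. Ch25h, the enzyme that makes 25-hydroxycholesterol, rose from 42.4, 59.8 and 62.2 CPM to 172, 209 and 203 CPM (1.82 ± 0.14, adjusted p = 2.18e-12). The lipid droplet coat genes Plin2 (1.34 ± 0.11) and Plin3 (1.31 ± 0.09) and the desaturase gene Scd2 (1.27 ± 0.08) rose together. Cd36, a fatty acid scavenger receptor gene, rose from 4.28, 3.15 and 3.95 CPM to 19.1, 24.4 and 23.1 CPM (2.53 ± 0.31), and Abca1, the cholesterol exporter gene, from 1151, 1176 and 1103 CPM to 1582, 1706 and 1768 CPM (0.56 ± 0.07). Of 20 genes of sterol synthesis and uptake, 9 were higher and none lower (median 0.40). Fdft1 (0.71 ± 0.08), Dhcr7 (0.67 ± 0.08) and Hmgcs1 (0.42 ± 0.08) are enzymes of that path and rose.

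Lysosomal genes rose almost without exception. Of 27 lysosomal hydrolase and membrane genes, 26 were higher and 1 was lower, with a median of 0.63, and 15 of 16 genes of the proton pump that acidifies the lysosome were higher (median 0.38). Ctsd, cathepsin D, rose from 2037, 2346 and 2111 CPM to 3688, 3890.0 and 4264 CPM (0.87 ± 0.09, adjusted p = 5.64e-09). Galns (1.26 ± 0.08), Glb1 (0.89 ± 0.07), the myelin lipid hydrolase gene Galc (0.86 ± 0.07) and Gaa (0.74 ± 0.07) rose in the same libraries. The pump genes rose by less as a list, with differences from 0.145 to 0.799. Among those above the list's median were Atp6v1a at 0.80 ± 0.07, Atp6v1b2 at 0.62 ± 0.07, Atp6v0c at 0.61 ± 0.09 and Atp6v1c1 at 0.57 ± 0.09. Sgsh, the heparan N-sulfatase gene, was the exception, falling from 39.8, 34.7 and 40.5 CPM to 16.3, 12.5 and 18.3 CPM (-1.31 ± 0.13, adjusted p = 1.03e-09).

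Cytokine genes showed no shift as a list. Of 17 genes of inflammatory cytokines and NF-kB feedback, 4 were higher and 4 lower (median -0.003). These counts are close to the shares over all genes tested, 20.9% higher and 17% lower. Without Clec7a-negative replicate 3, 2 were higher. Il1rn, the interleukin 1 receptor antagonist, rose from 4.90, 3.04 and 3.86 CPM to 25.1, 21.5 and 22.4 CPM (2.54 ± 0.18, adjusted p = 3.77e-13), and Il1b rose by 1.08 ± 0.14. Il6 fell from 7.22, 5.98 and 5.04 CPM to 2.08, 2.62 and 1.04 CPM (-1.59 ± 0.27, adjusted p = 1.36e-05), and Il18 fell by 0.49 on the log2 scale. Tnf stood at 55.7, 49.5 and 49.8 against 53.3, 43.8 and 48.0 CPM, with overlapping groups (-0.09 ± 0.16, adjusted p = 0.69). Of 15 chemokine genes, 14 were higher and none lower, with a median of 0.90. Cxcl14 rose from 9.71, 9.23 and 8.23 CPM to 43.9, 46.3 and 37.4 CPM (2.24 ± 0.15), and Cxcl16 (0.90 ± 0.07), Ccl3 (0.84 ± 0.13) and Ccl9 (0.65 ± 0.09) rose as well.

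Immediate early and AP-1 genes were lower in 7 and higher in 3 of 24 cases (median -0.30). Fosb stood at 388, 307 and 322 CPM in Clec7a-negative and 163.5, 100.0 and 134 CPM in Clec7a-positive libraries (-1.35 ± 0.37, adjusted p = 0.00352), and its call ended in the DESeq2 analysis (adjusted p = 0.175). Jun fell by 0.69 on the log2 scale (adjusted p = 0.0163), and its call ended without Clec7a-positive replicate 2 (adjusted p = 0.0897). Fos stood at 739.7, 686 and 686 against 458, 359 and 506 CPM. Those groups did not overlap, and the difference of -0.68 ± 0.43 had an adjusted p of 0.227 with all 29 libraries and 1.28e-07 with only the compared groups, where 12 rather than 7 members of the list were lower. Fosl2 (-0.71 ± 0.11) and Maf (-0.58 ± 0.10) fell, while Maff (1.68 ± 0.12) and Egr2 (1.45 ± 0.11) rose. The summed level of the 24 genes ran from 6223 to 6603 CPM in Clec7a-negative, 4529 to 5490 CPM in Clec7a-positive and 2416 to 3828 CPM in baseline libraries.

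Transcription factors of the lineage went both ways, with 7 of 24 higher and 6 lower (median 0.03), beside 20.9% and 17% of all genes tested. Bhlhe40 rose from 22.5, 31.1 and 28.0 CPM to 132.5, 145 and 115 CPM (2.28 ± 0.12, adjusted p = 2.05e-16). Runx2 rose from 2.32, 1.57 and 3.28 CPM to 8.98, 10.1 and 14.8 CPM (2.17 ± 0.32), and Hif1a, the oxygen-sensing factor, rose by 1.05 ± 0.09. Mitf, a regulator of lysosomal genes, rose by 0.64 ± 0.09. Irf4 (-1.28 ± 0.17), the TGF-beta mediator gene Smad3 (-0.47 ± 0.06) and Sall1 (-0.40 ± 0.07), a factor that sets microglial identity, fell. Mef2c, the relative of Mef2a, stood at 599, 559 and 516 against 504.9, 576 and 592 CPM, with overlapping groups and a difference of -0.00 ± 0.07 (adjusted p = 0.984). Of 21 genes of Polycomb, the complexes that place repressive histone marks, and of their demethylases, 8 were lower and 3 higher. The H3K27 demethylase gene Kdm6b fell by 0.98 on the log2 scale, Cbx7 by 0.73, Jarid2 by 0.48 and Phf1 by 0.40. Ezh2, the catalytic subunit gene, stood at 22.9, 21.6 and 24.3 against 24.0, 26.3 and 22.8 CPM (0.09 ± 0.12, adjusted p = 0.605). Without Clec7a-negative replicate 1 or without Clec7a-positive replicate 2, 5 Polycomb genes were lower.

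Metabolic genes rose broadly. Of 20 genes of glycolysis and lactate transport, 14 were higher and none lower (median 0.74), with 1 lower in 4 alternatives, among them that without Clec7a-positive replicate 1, and of 24 genes of oxidative phosphorylation 19 were higher and none lower (median 0.55). Slc2a1, the glucose transporter gene, rose from 122, 126 and 124 CPM to 234, 247.5 and 251 CPM (0.97 ± 0.06, adjusted p = 1.08e-14), and the lactate exporter gene Slc16a3 from 125, 135 and 139.9 CPM to 259.6, 275 and 292 CPM (1.04 ± 0.07, adjusted p = 5.47e-14). Ldha rose by 0.93 ± 0.08 and Gpi1 by 0.86 ± 0.07. Ndufa1 of complex I rose by 1.41 ± 0.19, and the cytochrome oxidase subunit genes Cox4i1 (0.81 ± 0.13), Cox8a (0.77 ± 0.09) and Cox7a2 (0.69 ± 0.11) rose too. Of 26 cell cycle genes, 15 were higher and none lower (median 0.50). Mki67, a marker of dividing cells, rose from 132.5, 141 and 142 CPM to 193, 238.5 and 227 CPM (0.66 ± 0.16, adjusted p = 0.00126), where baseline microglia held 8.06, 6.86 and 16.7 CPM. Cdk1 (0.95 ± 0.13), Ccnb2 (0.81 ± 0.17), Mcm6 (0.52 ± 0.10) and Pcna (0.52 ± 0.10) rose with it.

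Complement and Fc receptor genes were higher in 12 of 16 cases, with none lower (median 0.42). C3 rose from 24.9, 27.9 and 28.7 CPM to 100.1, 94.9 and 89.3 CPM (1.80 ± 0.11, adjusted p = 8.41e-15), and C4b rose by 1.44 ± 0.16. C1qa, a chain of the complex that starts the classical pathway, rose by 0.45 ± 0.09, the activating receptor gene Fcgr4 by 0.92 ± 0.12 and the inhibitory receptor gene Fcgr2b by 0.46 ± 0.07. Matrix proteins and proteases were higher in 13 and lower in 2 of 17 cases (median 0.79). Cspg4, the NG2 proteoglycan, rose from 86.1, 104 and 118 CPM to 425, 429 and 396 CPM (2.02 ± 0.08, adjusted p = 8.86e-19). Fn1, fibronectin, rose from 557, 749.6 and 827 CPM to 1770.0, 1957 and 2140.0 CPM (1.46 ± 0.16, adjusted p = 5.93e-09). Both genes were close to absent at baseline, where Cspg4 stood between 0.658 and 0.759 CPM and Fn1 between 0.487 and 1.61 CPM. Lgi2 (2.48 ± 0.16), the elastase gene Mmp12 (2.37 ± 0.24), the urokinase receptor gene Plaur (1.42 ± 0.09) and the syndecan gene Sdc3 (0.79 ± 0.06) rose too.

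TGF-beta signalling, which maintains resting microglia, had 6 of 18 genes higher and 5 lower, and without Clec7a-positive replicate 1 3 were lower. Bambi, a decoy receptor gene, rose from 2.23, 1.15 and 2.02 CPM to 7.18, 9.34 and 6.44 CPM (2.07 ± 0.24), and Tgfbr2 rose by 0.30 ± 0.06. The co-receptor gene Eng (-0.56 ± 0.07) and Acvr1 (-0.31 ± 0.06) fell. Tgfbr1 stood at 1629, 1642 and 1455 against 1357, 1446 and 1604 CPM, with overlapping groups (-0.10 ± 0.07, adjusted p = 0.268). Of 18 genes for copper and iron handling, 11 were higher and 1 was lower (median 0.49). The haem oxygenase gene Hmox1 (1.08 ± 0.08), the metallothionein gene Mt1 (1.04 ± 0.11) and the transferrin receptor gene Tfrc (0.86 ± 0.10) rose. Slc40a1, which encodes ferroportin, the iron exporter, fell from 221, 231 and 211 CPM to 123.5, 129 and 142 CPM (-0.75 ± 0.06, adjusted p = 2.01e-11).

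Markers of other cells were followed as a check on the gate. Of 9 border macrophage markers in the table, 8 were tested, 7 were higher in Clec7a-positive cells and none was lower (median 2.71), and 7 were higher without Clec7a-positive replicate 1 as well. Siglec1 rose from 47.9, 62.6 and 79.8 CPM to 208, 202 and 192 CPM (1.66 ± 0.16, adjusted p = 2.63e-10), and Folr2 from 5.08, 6.08 and 6.80 CPM to 30.5, 24.3 and 29.2 CPM (2.22 ± 0.14, adjusted p = 4.05e-14). These levels were alike in the 3 Clec7a-positive libraries. Others differed among those libraries: Mrc1, the mannose receptor gene, stood at 19.7, 11.2 and 16.4 against 89.6, 53.4 and 42.1 CPM (1.98 ± 0.34), Cd163 at 2.49, 0.315 and 0.924 against 16.8, 8.88 and 9.40 CPM, and Lyve1 at 0.267, 0 and 0.0840 against 11.3, 3.87 and 1.39 CPM. Replicate 1, the library with the highest Ly9 level, was the highest for all 3. F13a1, a monocyte marker that border macrophages also express, was also highest there, at 18.1 CPM against 12.9 and 7.48 CPM. Without that library the differences were 1.60 for Mrc1, 2.82 for Cd163, 2.76 for F13a1 and 4.37 for Lyve1, against 5.44 ± 1.03 for Lyve1 with it, and all 4 kept their calls (adjusted p = 0.000727, 0.00198, 0.000267 and 0.00351). Lyve1 was 6.62 without Clec7a-negative replicate 1, and Cbr2 was 3.92 without Clec7a-negative replicate 3 against 3.29 ± 0.56 with it. Cd209f rested on few reads, at 0.0891, 0 and 0.0840 against 2.65, 2.16 and 0.870 CPM (adjusted p = 0.000942), and Ms4a8a had none in the 6 libraries. Stab1, a scavenger receptor gene that these microglia also express, stood at 1147, 1156 and 1075 against 1177, 1072 and 1116 CPM, with overlapping groups (-0.01 ± 0.07, adjusted p = 0.969). The sum of the list without Stab1 ran from 76.0 to 104.8 CPM in Clec7a-negative and 280.1 to 365 CPM in Clec7a-positive libraries, and was 162, 135 and 33.4 CPM at baseline. Siglec1 made up most of it in Clec7a-negative and Clec7a-positive libraries, with means of 63.4 and 200.9 CPM. At baseline most of the sum was Mrc1, so the baseline sum rests on another gene. In bulk libraries more cells of a type and more RNA per cell cannot be told apart. The part of border macrophages in the other results was not tested.

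**Figure D4:**
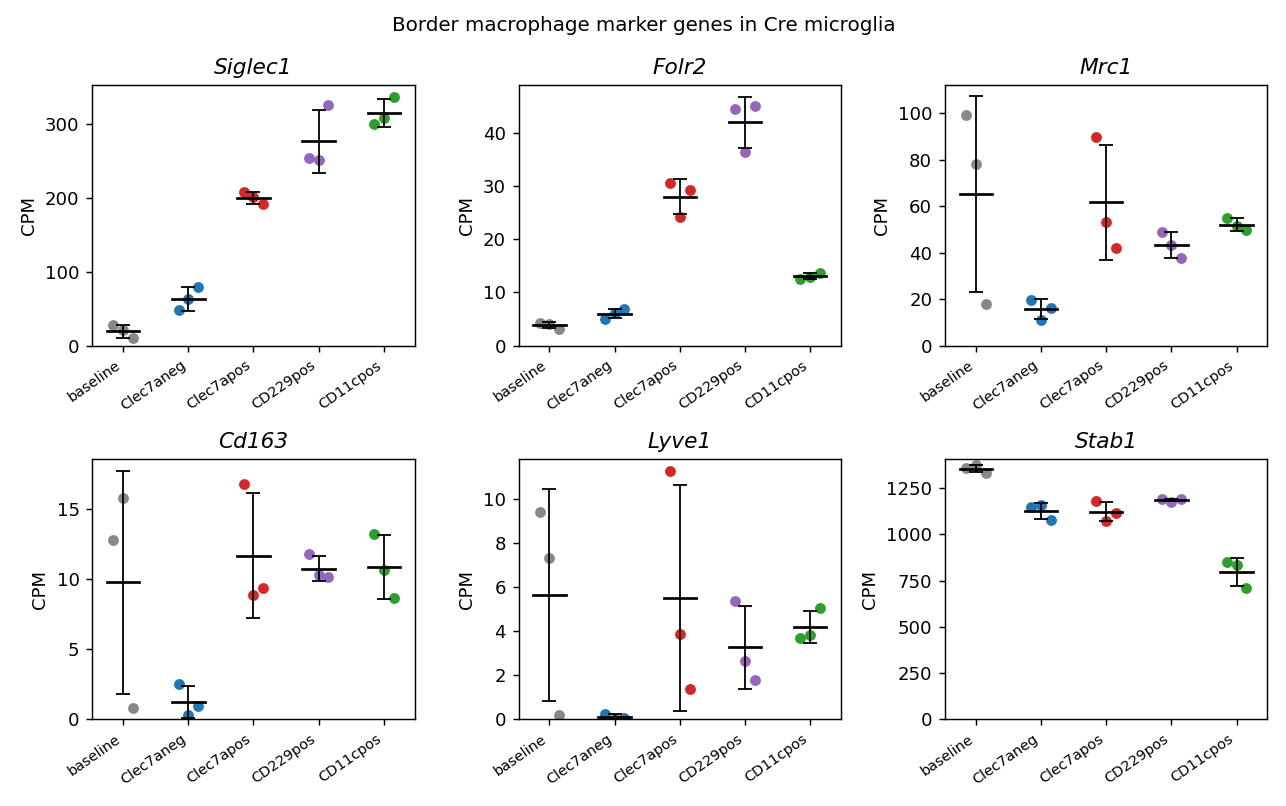
Levels of 6 border macrophage markers in CPM (vertical axis), 1 point per library, with mean and SD as bars, in the Cre populations (horizontal axis). Siglec1 and Folr2 lie close together in the 3 Clec7a-positive libraries, whereas Mrc1 runs from 42.1 to 89.6 CPM and Lyve1 from 1.39 to 11.3 CPM, and 1 of the 3 baseline libraries is far below the other 2 for Mrc1, Cd163 and Lyve1.

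Endothelial markers split. Flt1, a VEGF receptor that activated macrophages also carry, rose from 31.1, 34.0 and 38.8 CPM to 192, 181 and 165 CPM (2.37 ± 0.10, adjusted p = 1.95e-18), and Kdr rose by 0.45 ± 0.13. Pecam1 fell from 41.5, 40.6 and 45.0 CPM to 14.7, 9.91 and 14.3 CPM (-1.72 ± 0.15), and Cdh5 was called lower (-0.65 ± 0.25, adjusted p = 0.0389) with overlapping groups, a call that ended in 9 alternatives, such as without Clec7a-negative replicate 1 (adjusted p = 0.182) and without Clec7a-positive replicate 2 (adjusted p = 0.174). The defining markers Cldn5, Tek and Slco1a4 had no read in the 6 libraries, and the summed list ran from 94.1 to 105.3 CPM in Clec7a-negative and 206.5 to 233 CPM in Clec7a-positive libraries, a rise carried by Flt1. Oligodendrocyte markers gave sums of 178.5 to 199.4 and 170.5 to 198.4 CPM, with 1 of 6 higher (Mbp, 0.23 ± 0.08, adjusted p = 0.0155) and 1 lower (Mag, -0.53 ± 0.12). The Mbp call ended without Clec7a-negative replicate 1, Clec7a-negative replicate 3 or Clec7a-positive replicate 1 (adjusted p = 0.123, 0.0627 and 0.0846). Cnp stood at 76.0, 71.2 and 84.0 against 78.7, 75.3 and 71.7 CPM. The precursor markers Olig2 and Pdgfra had no read in Clec7a-negative libraries and reached at most 0.662 and 0.228 CPM in Clec7a-positive libraries, beside the rise of the precursor gene Cspg4. Of 6 tested astrocyte markers, 1 was higher and 1 lower (median 0.23), with 2 higher without Clec7a-positive replicate 3. Gfap, the filament gene of astrocytes, rose from 1.78, 0.315 and 1.18 CPM to 3.59, 3.64 and 2.96 CPM (1.60 ± 0.37, adjusted p = 0.000889). Slc1a3, which made up most of the summed level of 134.6 to 165 CPM in Clec7a-negative and 103.7 to 114 CPM in Clec7a-positive libraries, fell by 0.52 on the log2 scale.

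Several defining markers of lymphoid and blood cells had no read in the 6 libraries, while others were measured. Of 2 tested T and NK cell markers, Klrb1c rose from 0.713, 0.734 and 0.924 CPM to 3.97, 5.69 and 3.31 CPM (2.44 ± 0.31, adjusted p = 1.16e-07), and Cd3g, Cd2, Cd8a, Nkg7 and Gzma had no read. Klrb1c lies near Klrb1b on chromosome 6, which rose by 2.38 ± 0.18. How reads were split between these 2 genes was not tested. The B cell marker Cd79b stood at 15.7, 15.2 and 21.9 against 12.4, 12.1 and 14.6 CPM and was called lower (-0.46 ± 0.18, adjusted p = 0.0496), a call that ended in 4 alternatives, with adjusted p up to 0.3 without Clec7a-negative replicate 3, and Ms4a1 and Blk had no read. Csf3r, a receptor gene shared by neutrophils and microglia, made up nearly all of the neutrophil sum of 762 to 807 and 826 to 932 CPM and was not called (0.14 ± 0.07, adjusted p = 0.113), while S100a9, Ly6g and Retnlg had no read. The monocyte receptor gene Ccr2 stood at 9.71, 8.18 and 11.8 against 7.75, 8.54 and 6.79 CPM, with overlapping groups (-0.36 ± 0.31, adjusted p = 0.396). Besides F13a1, the monocyte gene Ms4a4c was called higher (0.57 ± 0.22, adjusted p = 0.0442), which ended when any 1 of the 6 libraries was left out (adjusted p from 0.0509 to 0.165). Of 5 dendritic cell genes, Flt3 (-1.51 ± 0.46) and Siglecg were lower, and Cd209a was higher (2.03 ± 0.75, adjusted p = 0.0326). The Cd209a call ended without Clec7a-negative replicate 1, Clec7a-negative replicate 2 or Clec7a-positive replicate 1 (adjusted p = 0.0936, 0.117 and 0.113). The difference was 2.81 without Clec7a-negative replicate 3. Neuron markers gave no call in 2 tested genes and summed to at most 3.97 CPM.

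The other steps of the sort place the Clec7a-negative and Clec7a-positive cells among the rest. From baseline to Clec7a-negative cells, 2052 genes were higher (15.5%) and 1756 lower (13.3%). This diet step shares its Clec7a-negative libraries with the Clec7a step, and its gates differ, so values are given side by side. Clec7a itself rose by 2.32 ± 0.12 in the diet step and 1.80 ± 0.10 in the Clec7a step, Igf1 by 2.60 ± 0.21 and 2.66 ± 0.14, and Cspg4 by 7.17 ± 0.17 and 2.02 ± 0.08. Mki67 rose by 3.72 ± 0.21 in the diet step and 0.66 ± 0.16 in the Clec7a step. Mrc1 fell by 2.04 on the log2 scale in the diet step, where baseline replicate 3 had 17.9 CPM and the other baseline libraries 99.4 and 78.2 CPM. Cd163 and F13a1, among the largest increases of the Clec7a step, had diet steps of -2.93 ± 0.63 and -3.33 ± 0.50. Of 8 border macrophage markers tested, 6 were lower and 2 higher in the diet step.

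Beyond the Clec7a step, at the CD229 step, 277 genes were higher (2.1%) and 453 lower (3.43%) in CD229-positive against CD229-negative Clec7a-positive cells, which are the same Clec7a-positive libraries as above. Ly9 rose by 2.83 ± 0.14 there, from 29.4 to 58.7 CPM to a range of 275 to 301 CPM. Gpr165 fell further, to 4.03, 4.63 and 7.73 CPM (-1.65 ± 0.24, adjusted p = 2.72e-05), Cspg4 rose further, to 624, 607 and 629.7 CPM (0.57 ± 0.08, adjusted p = 1.06e-05), and Igf1 stood at 288, 272.5 and 215 CPM (0.28 ± 0.13, adjusted p = 0.21). At the CD11c step, 904 genes were higher (6.85%) and 957 lower (7.25%). Postn, not called at the Clec7a step, rose at the CD11c step from 11.03, 9.50 and 8.49 CPM to 175, 179 and 187.5 CPM (4.22 ± 0.13, adjusted p = 3.29e-22). Cd74 rose from 122, 126 and 138 CPM to 498, 460.0 and 456 CPM (1.87 ± 0.18), Lgals3 by 1.08 ± 0.09, and Folr2 fell by 1.69 on the log2 scale.

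The Clec7a step was larger in Mef2aKO microglia for a subset of genes. In that genotype 3275 genes were higher (24.8%) and 2775 lower (21%) in Clec7a-positive cells. The difference between the steps of both genotypes, tested as an interaction, passed the threshold for 257 genes (1.95%), 225 of them with a more positive step in Mef2aKO and 32 with a more negative one. Levels of Mef2a RNA were 926 and 849 CPM in Mef2aKO Clec7a-negative and 656, 718 and 619 CPM in Mef2aKO Clec7a-positive libraries, so gene-level counts do not show the deletion. The test rests on 2 Mef2aKO Clec7a-negative libraries: without replicate 1 of them, 107 genes passed.

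Several genes of the Clec7a step started lower in Mef2aKO Clec7a-negative cells. Igf1 stood at 4.92 and 7.51 CPM in Mef2aKO Clec7a-negative and 137, 136 and 147.5 CPM in Mef2aKO Clec7a-positive libraries, against 33.2 to 34.3 and 202 to 232 CPM in Cre. Its step was larger in Mef2aKO by 1.83 (adjusted p = 0.000136). Cspg4 stood at 14.0 and 17.96 against 223, 208 and 244 CPM in Mef2aKO, a step larger by 1.79 than in Cre (adjusted p = 1.52e-09). Flt1 stood at 5.41 and 4.81 against 123.5, 114 and 147 CPM, with a step larger by 2.27 (adjusted p = 9.22e-09). For these genes both Mef2aKO populations were below their Cre counterparts in every library. Bhlhe40 differed in the Clec7a-negative cells, at 7.37 and 7.04 CPM in Mef2aKO against 22.5 to 31.1 CPM in Cre. With Clec7a, it stood at 114.8, 130 and 126 CPM in Mef2aKO and 115 to 145 CPM in Cre, overlapping ranges (step larger by 1.82, adjusted p = 2.17e-06). Apoe had a step larger by 0.66 in Mef2aKO, from 562 and 549 CPM to 2444, 2458 and 2495 CPM, and its call ended without Mef2aKO Clec7a-negative replicate 1. Clec7a itself stood at 94.1 and 103 CPM in Mef2aKO Clec7a-negative cells and 510.5, 601 and 577 CPM in Mef2aKO Clec7a-positive cells. Its step was larger by 0.71 (adjusted p = 0.00673), also a call that ended without that library.

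Postn, Sema6d, Il18rap and Creb5 had more negative steps in Mef2aKO. Postn fell in Mef2aKO from 14.0 and 17.5 CPM to 6.05, 7.26 and 5.49 CPM (-1.34 ± 0.18), a step 1.47 below that of Cre (interaction -1.47, adjusted p = 0.000136). Sema6d, a transmembrane semaphorin gene, fell in both genotypes, in Cre from 39.0, 39.3 and 36.9 CPM to 14.1, 9.68 and 10.1 CPM (-1.74 ± 0.18) and in Mef2aKO from 20.4 and 24.2 CPM to 3.50, 3.23 and 1.08 CPM. Of the homeostatic genes, Gpr165 fell to 4.82, 5.51 and 5.02 CPM in Mef2aKO, and the interaction of -0.94 did not pass the threshold (adjusted p = 0.135).

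**Figure D5:**
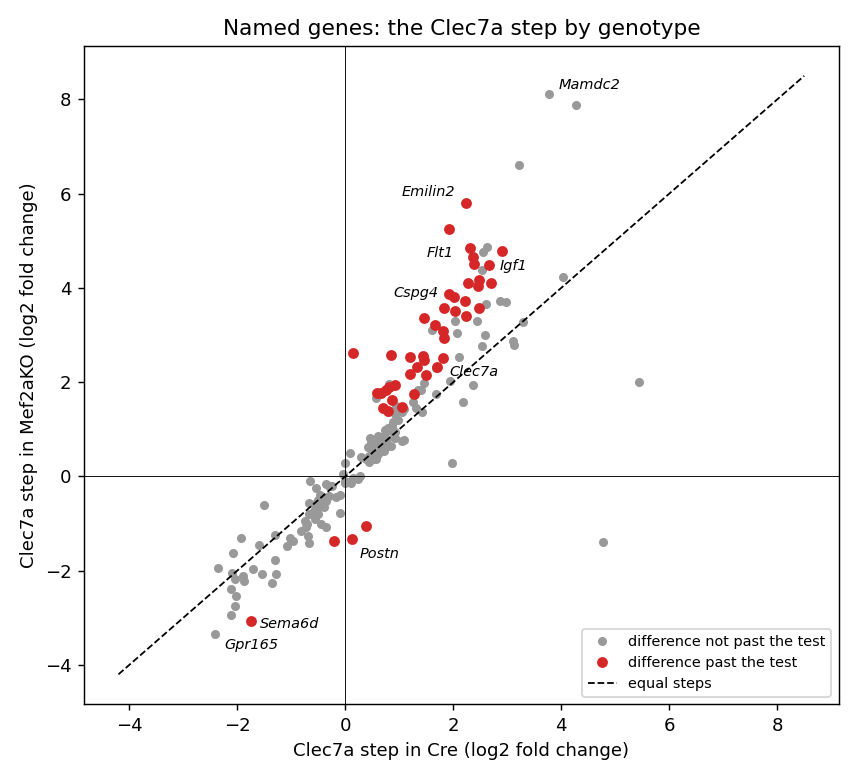
Clec7a step of the named genes in Mef2aKO (vertical axis) against Cre (horizontal axis), both as log2 differences, 1 point per gene. Red points are genes whose steps differed by the interaction test, 42 above and 4 below the dashed line of equal steps. Steps of genes with almost no reads in a Clec7a-negative group depend on edgeR's default prior count.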

How the data were processed

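Polyadenylated RNA of sorted microglia was made into strand-marked (dUTP) libraries, per the labels. The authors deposited raw read counts per gene, and the submitters' processing notes name the tools HOMER 4.11, STAR 2.7.0f, fastp 0.20.0 and DESeq2 and the build mm10 (GRCm38). Their roles, and whether counting used the strand, are not given in the sources used here, so reads of overlapping or antisense genes may not be separable. Brains were dissociated in a buffer with a transcription inhibitor, per the labels' protocols. The members and lists were chosen with earlier results of these data known.

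All 29 libraries of the 5-week table (10 groups, 25124 genes) entered 1 fit in edgeR 4.0.16 (R 4.3.3): the default expression filter by group, which left 13204 genes, TMM scaling, 1 mean per group and the quasi-likelihood F test with 19 residual degrees of freedom. P-values were adjusted by Benjamini-Hochberg over all genes tested. CPM use TMM-scaled library sizes, and the standard error is the size of the log2 difference divided by the square root of F. A prior count of 2 was set for the principal components only. The log2 differences carry edgeR's default prior count. The fit was tested on simulated data. Named genes were the genes of the gate and the target; the 12 largest differences in each direction among called genes whose groups did not overlap and whose mean over the 6 libraries reached 5 CPM, leaving out predicted genes and small RNAs; up to 4 called members of each of 34 lists (578 genes) by adjusted p; and the 4 largest interactions in each direction. Further list members were named after their values were seen, to give the defining genes of each list, and some named genes are not reported here. Alternatives were RLE scaling, no low-count filter, DESeq2 1.42.0, fewer libraries in the fit, a replicate block and each library left out in turn. Figures were drawn with matplotlib 3.10.9. TPM tables and the other tables of the series were not used here.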

Additional observations from a re-analysis of the deposited data

Results flagged for a closer look

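The Clec7a step differed between Mef2aKO and Cre microglia for 257 genes by the interaction term of edgeR's quasi-likelihood fit, and 46 of the genes named here were among them. Values are the step in Mef2aKO minus the step in Cre on the log2 scale. A more positive step that held under all 17 alternatives was found for Baiap2l2 (2.54), Flt1 (2.27), Gpnmb (1.97), Fn1 (1.90), Igf1 (1.83), Bhlhe40 (1.82), Cspg4 (1.79), Ch25h (1.75), Fabp5 (1.69), Apoc1 (1.57), Siglec1 (1.55), Spp1 (1.48), Rsad2 (1.34), C3 (1.28), Lpl (1.10), Oas1a (1.08), Axl (1.02), Nlrc5 (0.76), Csf1 (0.63) and Sdc3 (0.60). Postn, with -1.47, held as well.

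Another 11 genes had a more positive step whose call ended in 1 alternative, the omission of Mef2aKO Clec7a-negative replicate 1, which leaves 1 library in that group: Emilin2 (3.55), Plxna2 (3.33), Shcbp1 (2.47), Klrb1b (2.13), Folr2 (1.51), Colec12 (1.40), Lgi2 (1.09), Ifit2 (1.007), Cst7 (1.00), Clec7a (0.71) and Apoe (0.66). Calls ended in other alternatives, alone or as well, for Apoc4 (1.89), Cd74 (1.18), Cxcl14 (1.17), C4b (1.12), Mki67 (1.11), Ccnb2 (1.09), Ifi27l2a (0.98), Tfrc (0.77), Scd2 (0.49) and Slc16a3 (0.44), and among the negative values for Il18rap (-1.42), Sema6d (-1.33) and Creb5 (-1.15). The Cd74 call ended in 14 of the 17.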

How the results depend on the processing

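The Clec7a step in Cre gave 4999 genes past the threshold, 4187 to 4589 when each of its libraries was left out in turn, and 4976 in DESeq2. The main fit did not pair same-numbered replicates. Correlations of their deviations were 0.05, 0.06 and -0.02, and not every library correlated best with its own number. Such correlations cannot show whether same-numbered libraries came from the same pool of mice. A replicate block gave 5030 genes with all libraries and 4957 with only the compared groups. Of 191 named genes, 178 stayed on their side of the threshold in all 13 alternatives, and 13 changed side in at least 1. No named gene changed direction where the main analysis or the alternative passed the threshold. Changes of sign among genes called in neither were not counted. Of the genome-wide counts, only that of the interaction moved by over 1.5 times: 257 genes became 473 without the low-count filter, and ranged from 107 (without Mef2aKO Clec7a-negative replicate 1) to 275 when libraries were left out in turn, where the lone library of that group is assumed to vary like the others. With 3 libraries per group and few reads in the Clec7a-negative group, depth limits the size of the differences for Lyve1, Cd209f, Clec10a and Cd163.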
